A study of Mus musculus with 18 samples.

Results

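Rab GTPases and the subunits of the vacuolar proton pump (V-ATPase) were followed in single myeloid cells of mouse yolk sac and brain from embryo to adult. The members were chosen by name alone: gene rows with a Rab symbol of a number and an optional letter, or a symbol that begins with Atp6v or Atp6ap. They number 82 of the 27297 rows of the count table, 57 for Rabs and 25 for V-ATPase subunits and accessory proteins. The cells came from C57BL/6J mice that carry a green fluorescent protein (GFP) reporter at Cx3cr1, a receptor gene of microglia and related macrophages, and no treatment was given. Yolk sac cells of embryonic day 12.5 (E12.5) gave 4 libraries with 671 kept cells and brain cells of E12.5 gave 4 libraries with 718 cells, both taken from a gate that was CD45+, CD11B+ and positive for the reporter. Brain cells of embryonic day 18.5 (E18.5) gave 6 libraries with 992 cells and adult brain cells gave 4 libraries with 631 cells, both taken at intermediate CD45 and CD11B with the reporter on. The later ages thus differ from E12.5 in gate as well as in age, and the age of the adults is not given in the sources used here.

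Rab proteins are small GTPases that sit on the membranes of the secretory and endocytic routes, each on its own set of compartments. Exchange factors load them with GTP, activating proteins switch them off, and a chaperone (GDI) carries the inactive form through the cytosol. The V-ATPase acidifies endosomes and lysosomes: its V1 sector in the cytosol hydrolyses ATP and drives the V0 sector in the membrane, which moves protons through a ring of proteolipid subunits. Microglia and other macrophages take up dead cells and debris, which they degrade in Rab-marked, V-ATPase-acidified compartments.

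A UMI (unique molecular identifier) stands for 1 captured transcript. Yolk sac libraries held 269698 to 309084 UMIs and E12.5 brain libraries 228467 to 534219, while E18.5 brain libraries held 143876 to 217647 and adult libraries 74562 to 99494. Adult values therefore carry the largest counting error. Each of 9 plates held 2 libraries, and all libraries of an age carried 1 subject number, so the p-values rest on library-to-library spread alone, which may be technical. Libraries of 1 plate were mostly closer to each other than libraries of different plates, and the test took all libraries as independent. E12.5 brain replicates 1 and 2 formed their own sequencing batch; replicates 3 and 4 shared a batch with yolk sac replicates 1 and 2; all other libraries were in the third batch. The microglia markers Tmem119, P2ry12, Sall1, Cx3cr1, Csf1r, Fcrls and Olfml3 were each detected in every group, but some were near the floor in yolk sac. Sall1, P2ry12 and Olfml3 had 4, 12 and 35 UMIs there, against 216, 117 and 1882 in E12.5 brain. As CPM, UMIs scaled to the library total, Csf1r was at 2911 to 3845 in yolk sac, and in brain at 4570 to 5249 at E12.5, 7544 to 8646 at E18.5 and 10825 to 11762 in adults. Tmem119 was at 18.1 to 37.0 CPM in yolk sac, and in brain at 631 to 870 CPM at E12.5, 1439 to 1731 CPM at E18.5 and 5324 to 6182 CPM in adults. Transcripts of 5 granulocyte precursor markers (Elane, Mpo, Ctsg, Prtn3 and Ms4a3) moved with the groups too: they summed to 429 to 1546 CPM in yolk sac, and in brain to 78.9 to 162 CPM at E12.5, 230 to 1267 CPM at E18.5 and 2495 to 9439 CPM in adults, where replicate 2 was the highest. At least 3 UMIs of that list were found in 105 of 671, 8 of 718, 78 of 992 and 264 of 631 cells of these groups. Leaving these cells out, an alternative chosen after the marker sums were seen, lowered the list to 296, 101, 516 and 1921 CPM over the 4 groups and so did not remove the difference between them. The 6 markers of embryonic and border macrophages (Cd163, Clec10a, F13a1, Lyve1, Mrc1 and Pf4) summed to 3422 to 6060 CPM in yolk sac, against 61.3 to 253 CPM in E12.5 brain, 101 to 252 CPM in E18.5 brain and 0 to 187 CPM in adult brain. The 5 platelet and megakaryocyte markers, with Pf4 again among them, summed to 2656 to 3252 CPM in yolk sac, against 74.4 to 176 CPM in E12.5 brain. Pf4 alone was at 2536 to 3229 CPM in yolk sac. Ppbp, Gp9 and the Itga2b and Gp1bb rows had 1, 12, 14 and 17 UMIs in yolk sac. In E12.5 brain they had 0, 3, 2 and 15. Gp9 was highest in adult brain, at 239 to 352 CPM. The 6 erythroid rows summed to 189 to 4010 CPM in yolk sac, against 11.2 to 150 CPM in E12.5 brain, and to 0 to 3070 CPM in E18.5 brain. The 5 monocyte markers summed to 0 to 1870 CPM in adult brain (median 48.8 CPM), against 5.53 to 207 CPM in E18.5 brain (median 96.3 CPM). In adult brain all of these were Ly6c2, with 188 UMIs, while Ccr2, S100a8, S100a9 and Plac8 had 0 UMIs. The part of these lists in the results below was not tested, other than by the values without the granulocyte cells.

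The counts of most Rabs were low. Of 57 Rab rows 20 passed the filter on low counts and held 89.9% of the 14209 Rab UMIs, while 37 did not pass, 6 of them with 0 UMIs in all libraries, 9 with 1 to 3 and 22 with more, up to 148 UMIs for Rab5a. Of 25 V-ATPase rows 15 passed and held 99.1% of 14277 UMIs. Of the other 10, 6 had 0 UMIs: Atp6v0d2 and Atp6v1b1, which are isoforms known from osteoclasts and from kidney, and Atp6v1e2, Atp6v1g3, Atp6ap1l and the Atp6v1c2 row. For such a row a count of 0 allows a level of up to 2.67 CPM in yolk sac, 2.01 in E12.5 brain, 2.82 in E18.5 brain and 8.30 in adult brain, counting 3 UMIs over a group, and counting error only. Atp6v1b2, the B subunit isoform that most cells use, had 96 UMIs in all, and Rab7, which marks late endosomes, had 85. Both were too low for the test. The 36 empty wells held 14 member UMIs among 1008 UMIs of any gene.

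Some V-ATPase and Rab promoters hold the letters CACGTG, the core of the sequence bound by TFEB, a regulator of lysosomal genes, and by other helix-loop-helix factors. In the promoter windows of RefSeq (build GRCm38.p6, 250 bases before to 50 after each annotated start), 45 of 57 Rab rows and 18 of 25 V-ATPase rows could be matched. CACGTG, a palindrome that reads the same on both strands, was present in 8.09% of 27025 genes, in 6 of 45 matched Rab rows (13.3%) and in 4 of 18 matched V-ATPase rows (22.2%). The longer palindrome TCACGTGA, which contains CACGTG, was in 1.12% of all genes, in 3 Rab rows and in 3 V-ATPase rows. Extended by 1 more base to G before and C after, it was in 0.37% of all genes, in 3 Rab rows and in 0 V-ATPase rows. Of the tested members with a match, 6 are shown because their levels are set beside these letters below, and Rab27a, whose match begins at −246, is not. Each line gives the gene strand, with CACGTG and the letters that extend it as a palindrome in capitals, and the window's position in GRCm38.p6.
Atp6v0b, chr4:117887338-117887387, minus strand: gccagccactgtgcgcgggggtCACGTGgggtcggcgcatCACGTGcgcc
Atp6v0d1, chr8:105566040-105566089, minus strand: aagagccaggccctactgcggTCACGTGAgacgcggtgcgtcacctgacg
Atp6v0e, chr17:26676377-26676426, plus strand: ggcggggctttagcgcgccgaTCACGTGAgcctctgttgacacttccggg
Atp6v1a, chr16:44139363-44139412, minus strand: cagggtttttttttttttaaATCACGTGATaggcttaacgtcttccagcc
Rab21, chr10:115315594-115315643, minus strand: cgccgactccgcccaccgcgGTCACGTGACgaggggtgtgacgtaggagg
Rab24, chr13:55321951-55322000, minus strand: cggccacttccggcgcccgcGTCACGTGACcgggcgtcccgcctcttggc
The first CACGTG began at position −36 (Atp6v0b), −3 (Atp6v0d1), 3 (Atp6v0e), −131 (Atp6v1a), −30 (Rab21) and 2 (Rab24) relative to the annotated start, which is position 0. Rab21 and Rab24 share the same 10 letters in capitals. A match describes these letters and is not a binding site shown by the data.

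The summed level of all Rab rows averaged 3655 ± 55.2 CPM in yolk sac, 3586 ± 243 in E12.5 brain, 3223 ± 170 in E18.5 brain and 3503 ± 206 in adult brain (SD, n = 4, 4, 6 and 4 libraries, the n of every mean over these groups). Every yolk sac library, at 3600 to 3712 CPM, lay above every E18.5 library, at 3044 to 3446 CPM, while E12.5 and adult brain overlapped both. Yolk sac and E18.5 brain were not compared by a test and differ in tissue, age and gate. The V-ATPase rows summed to 3829 ± 242, 3492 ± 160, 3506 ± 382 and 3085 ± 328 CPM in yolk sac, E12.5, E18.5 and adult brain. Within the pump the sectors differed. The V1 sector averaged 1827 ± 91.7, 1692 ± 67.7, 1328 ± 157 and 1239 ± 211 CPM, with all 10 later brain libraries below all 4 E12.5 brain libraries. The V0 sector averaged 1878 ± 168, 1602 ± 160, 1775 ± 233 and 1574 ± 226 CPM, with overlapping libraries. The 3 rows of accessory proteins averaged 123 ± 19.2, 198 ± 55.3, 404 ± 75.5 and 271 ± 62.9 CPM. As a share of all V-ATPase UMIs, V1 made up 47.8% in yolk sac. In brain it made up 48.5% at E12.5 (46.0 to 50.4%), 37.9% at E18.5 (35.7 to 39.5%) and 40.1% in adults (35.7 to 45.1%). Without Atp6v1f among the V1 rows, but with it kept in the total, the 4 values were 31.4%, 30.7%, 27.4% and 30.3%. The ranges of the brain groups overlapped. This share was computed after the change of Atp6v1f was seen. A fall of Atp6v1f lowers the total too, so this share cannot show the V1 change without that gene. In CPM, V1 without Atp6v1f averaged 1201 ± 76.0, 1068 ± 103, 957 ± 80.8 and 938 ± 170. CPM are shares of a library, so fewer cells with a transcript and fewer copies per cell cannot be told apart in these sums.

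**Figure D1:**
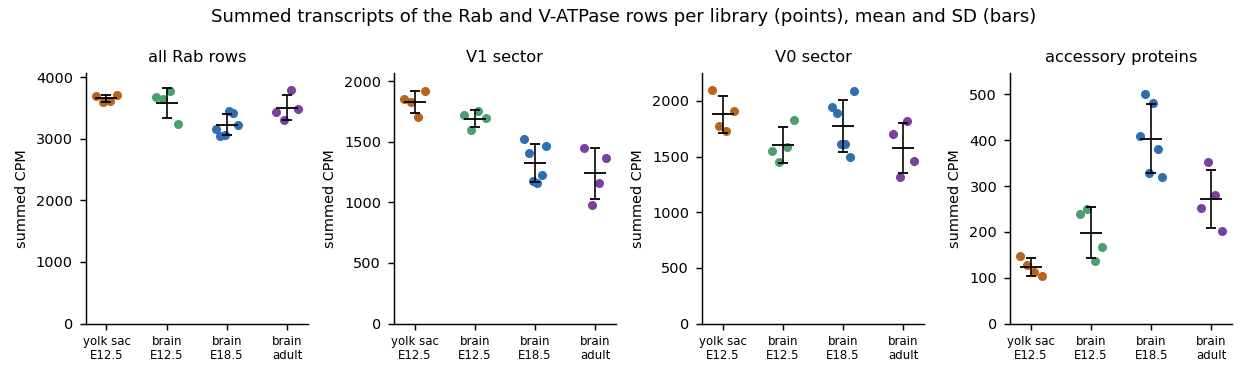
Summed CPM of all Rab rows and of the V1, V0 and accessory rows of the V-ATPase, 1 point per library, with the mean and SD of each group as bars. The Rab sums of all yolk sac libraries lie above those of all E18.5 libraries, which differ in tissue, age and gate. V1 is lower in E18.5 and adult brain than in E12.5 brain, and the accessory rows are highest in E18.5 brain.

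In yolk sac against E12.5 brain, which share the age and the gate, few members differed and each of those was higher in yolk sac. Markers of border macrophages, erythroid cells and granulocyte precursors were higher in yolk sac too, as given above, and their part was not tested. Of 20 tested Rabs, 2 rose (the Rab7b row and Rab24) and 0 fell, and of 15 tested V-ATPase rows 2 rose (Atp6v0a1 and Atp6v1a) and 0 fell. Over all tested rows, edgeR's quasi-likelihood test at a Benjamini-Hochberg adjusted p under 0.05 called 7.04% higher and 8.81% lower, against 10% higher and 0% lower for the Rabs and 13.3% higher and 0% lower for the V-ATPase rows. At 2 rows each, these shares are near the background. The median log2 fold change was 0.16 for the Rabs and 0.05 for the V-ATPase rows, against −0.05 for all tested rows. Without the cells that held granulocyte transcripts, 1 Rab was called (Rab24), since the Rab7b row no longer passed the filter on low counts, and with sequencing batch as a covariate 0 Rabs were called (adjusted p = 0.0654 and 0.588 for the Rab7b row and Rab24).

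In E18.5 brain against E12.5 brain, all 3 Rabs that changed fell, and the changed V-ATPase rows went both ways. Rab1b, Rab8a and Rab14 fell and 0 Rabs rose, while the accessory genes Atp6ap1 and Atp6ap2 rose and the V1 subunits Atp6v1f and Atp6v1e1 fell. Over all tested rows 11.1% were called higher and 13.4% lower by the same test, against 0% and 15% of Rabs and 13.3% and 13.3% of V-ATPase rows. The median log2 fold change was −0.12 for the Rabs, 0.02 for the V-ATPase rows and −0.03 for all rows. The brain libraries of these ages share neither a sequencing batch nor a gate, so age, gate and batch cannot be told apart. With a batch covariate, whose size the yolk sac and E12.5 brain libraries set, 0 Rabs and 1 V-ATPase row (Atp6ap1) passed.

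In adult brain against E18.5 brain, which share the gate and the batch, Rab21 and Rab35 rose, Rab32 fell, and 0 V-ATPase rows rose while Atp6v1a and Atp6ap2 fell. Over all tested rows 10.3% were called higher and 11.2% lower by edgeR. The members' shares were 10% and 5% for the Rabs and 0% and 13.3% for the V-ATPase rows, with median log2 fold changes of 0.08 and −0.12, against −0.03 for all rows. When cells with fewer than 500 UMIs were left out, 1 Rab and 1 V-ATPase row passed. With counts summed per plate, 0 V-ATPase rows passed (edgeR adjusted p = 0.0608 for Atp6v1a and 0.0675 for Atp6ap2), and of the 3 Rabs Rab32 alone did.

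Between the ends of the brain series, adult against E12.5, Rab35 and Atp6ap1 rose, and Rab32, Rab8a, Rab1b, Atp6v1a and Atp6v1f fell. This contrast shares its libraries with the 2 steps above and is no independent support for them. Over all tested rows 17.8% were called higher and 20.7% lower, against 5% and 15% of the Rabs and 6.67% and 13.3% of the V-ATPase rows. The medians were 0.07 for the Rabs, −0.0007 for the V-ATPase rows and −0.07 for all rows. Adult and E12.5 brain share neither a sequencing batch nor a gate, so here too age, gate and batch cannot be told apart. With batch as a covariate 1 Rab (Rab8a) and 2 V-ATPase rows (Atp6ap1 and Atp6v1f) passed, and Rab32, Rab35, Rab1b and Atp6v1a did not (edgeR adjusted p = 0.0867, 0.165, 0.345 and 0.346).

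**Figure D2:**
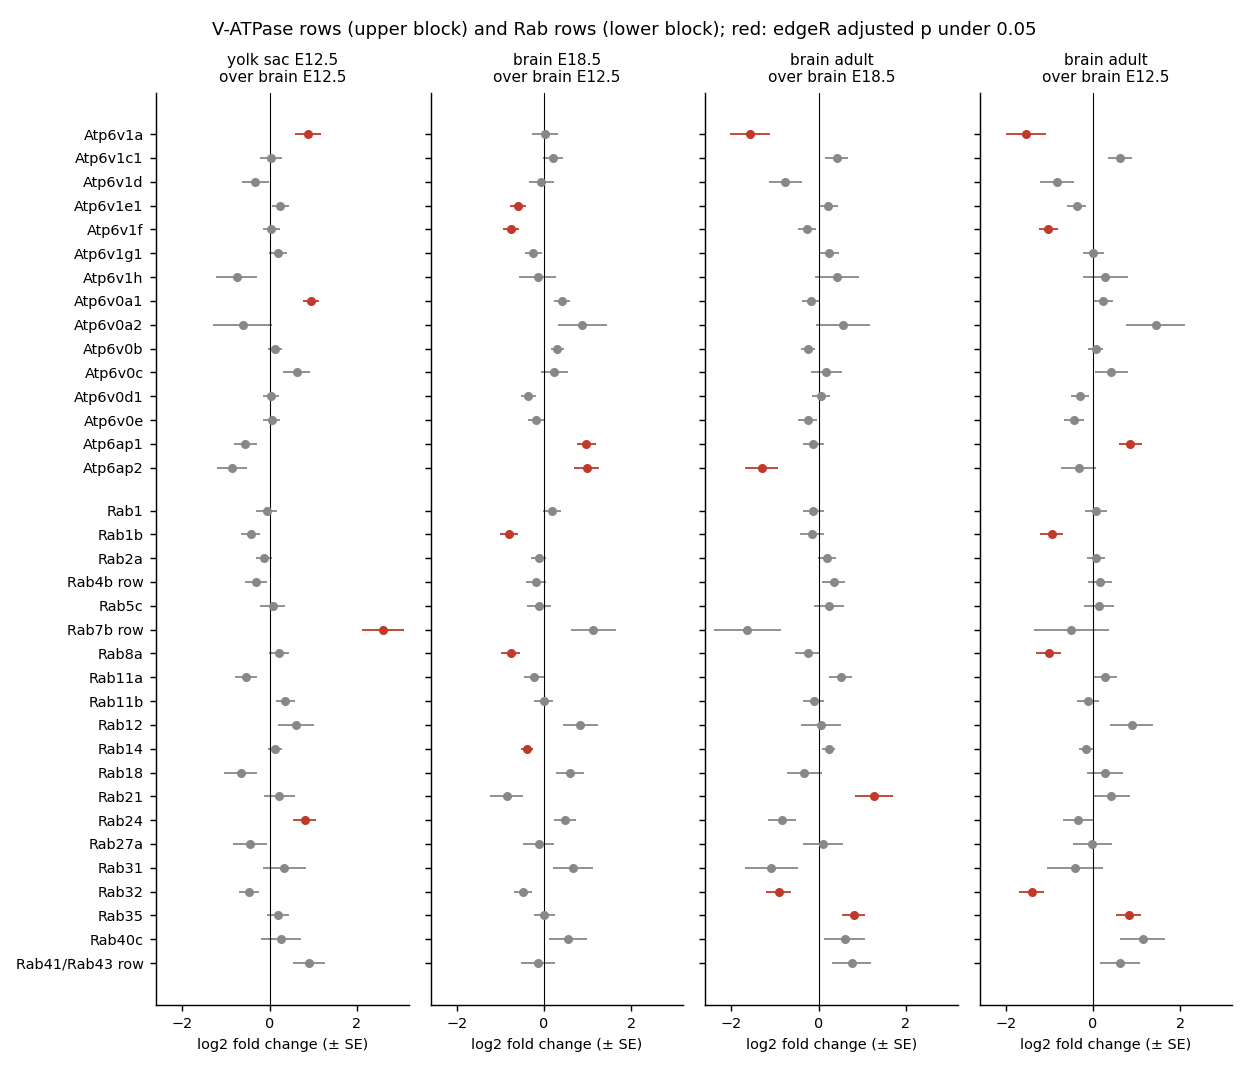
Log2 fold change with its standard error for the 15 tested V-ATPase rows (upper block) and the 20 tested Rab rows (lower block) in each of the 4 comparisons, the first-named group over the second, in red where edgeR's adjusted p is under 0.05. Most members lie within 1 log2 unit of 0 in every comparison, and the largest change of these tested rows is that of the Rab7b row in yolk sac, at 2.60.

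In the V1 sector the catalytic subunit Atp6v1a, the rotor subunit Atp6v1f and the stalk subunit Atp6v1e1 changed. Atp6v1a, the A subunit that hydrolyses ATP, stands in a row joined with a second name. It was at 185, 163, 214 and 278 CPM in yolk sac (replicates 1 to 4), against 166, 174, 64.3 and 35.0 CPM in E12.5 brain. The groups overlapped because brain replicates 1 and 2 stood far above replicates 3 and 4. These pairs differ in plate, sequencing batch and depth, which cannot be told apart. On the log2 scale the change was 0.89 (SE 0.30, edgeR adjusted p = 0.0357). The call was lost without yolk sac replicate 3 or 4 or brain replicate 3 or 4 (log2 0.65 to 0.90). Within the shared batch, yolk sac replicates 1 and 2 (185 and 163 CPM) stood above brain replicates 3 and 4 (64.3 and 35.0 CPM).

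The adult level of Atp6v1a was the lowest of the series. It was at 60.3, 11.0, 31.2 and 53.6 CPM in adult brain, against 87.3 (lowest), 129 (median) and 149 CPM (highest) in E18.5 brain, with no overlap. These adult values rest on 14 UMIs in all, and 3 UMIs stand for 30.2 to 40.2 CPM in an adult library. Libraries without overlap in this direction made up 9.13% of all tested rows. Its log2 fold change was −1.57 (SE 0.46, edgeR adjusted p = 0.0125), and it was −1.28 and not called without adult replicate 2. Against E12.5 brain it was −1.54 (SE 0.47, edgeR adjusted p = 0.00839), where the adult libraries overlapped replicate 4. Without the cells with granulocyte transcripts these values were −1.43 and −1.37, with edgeR adjusted p of 0.0715 and 0.0571 (range over all alternatives 2.55e-04 to 0.0715 for the first and 8.27e-05 to 0.346 for the second). The lowest adult library, replicate 2, was also the one with the most granulocyte transcripts, at 9439 CPM. That library had the highest adult value of Atp6ap1, Atp6ap2 and Rab35, and a link was not tested further.

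Atp6v1f, the F subunit of the central rotor, was lower in later brain. It was at 265 (lowest), 360 (median) and 499 CPM (highest) in E18.5 brain, against 530, 505, 806 and 652 CPM in E12.5 brain. All 6 E18.5 libraries lay below all 4 E12.5 libraries, a separation shown in this direction by 10.6% of all tested rows. The fitted log2 fold change was −0.76 (SE 0.18, edgeR adjusted p = 0.00132). This change did not pass with batch as a covariate or with counts summed per plate (edgeR adjusted p = 0.0667 and 0.0526). In adult brain it was at 352, 275, 229 and 349 CPM, again below every E12.5 library (19.0% of all tested rows), with a log2 change of −1.03 (SE 0.22; edgeR, adjusted p = 0.000181) that passed in all 15 alternatives. Adult and E18.5 libraries overlapped (log2 −0.27, adjusted p = 0.391). The yolk sac libraries, at 633, 718, 527 and 627 CPM, lay within the range of E12.5 brain.

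Atp6v1e1, the E subunit of the peripheral stalk, followed the same step. It was at 175, 206 and 260 CPM (lowest, median and highest) in E18.5 brain, against 350, 277, 338 and 320 CPM in E12.5 brain, with no overlap. The log2 fold change was −0.60 (SE 0.19, edgeR adjusted p = 0.0157), and it was not called without E12.5 replicate 1 or 3 or E18.5 replicate 1 or 4 (−0.54 to −0.51). The adult libraries spread widely, at 141, 275, 353 and 201 CPM, and did not differ from E18.5 brain beyond their spread (log2 0.22, edgeR adjusted p = 0.516). The other tested V1 rows, Atp6v1c1, Atp6v1d, Atp6v1g1 and Atp6v1h, passed in 0 of 4 comparisons each. Among them Atp6v1d, a rotor subunit, split the E12.5 brain plates as Atp6v1a did, at 206 and 236 CPM in replicates 1 and 2 and 94.3 and 131 CPM in replicates 3 and 4.

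**Figure D3:**
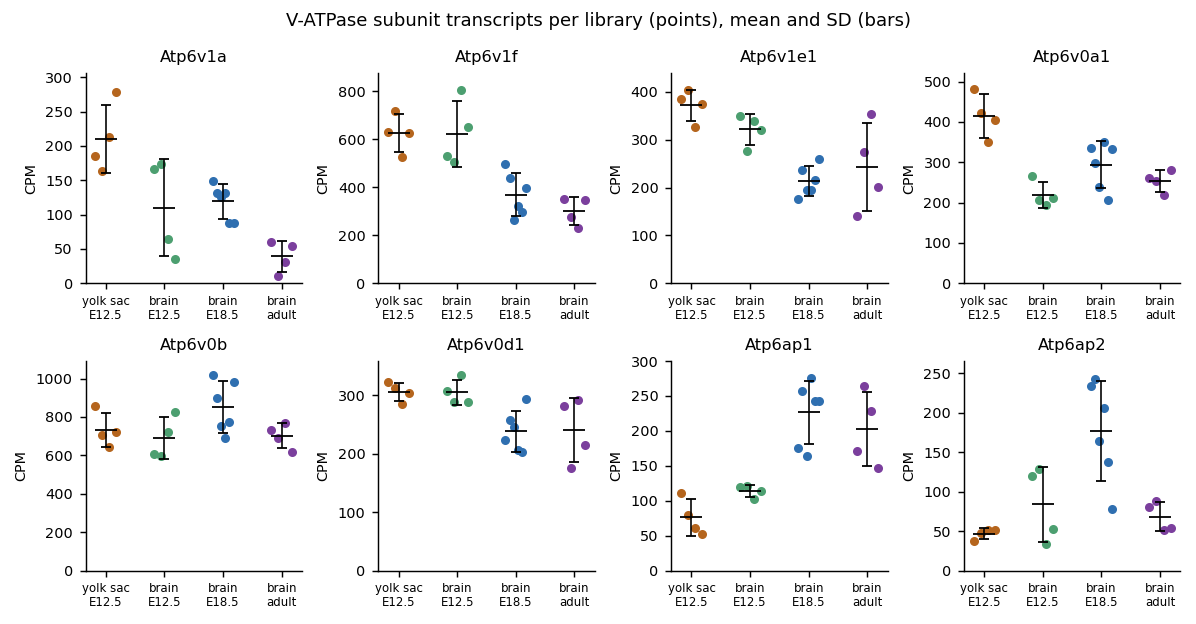
CPM of 8 V-ATPase rows, 1 point per library, with the mean and SD of each group as bars. Atp6v1f and Atp6v1e1 are lower in E18.5 than in E12.5 brain, Atp6v0a1 is highest in yolk sac, and Atp6ap1 is higher in later brain. The E12.5 brain libraries of Atp6v1a and Atp6ap2 fall into pairs that share a plate and a sequencing batch.

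In the V0 sector only Atp6v0a1 passed a test among the 6 rows tested. Atp6v0a1 is the a1 isoform of the membrane subunit that sends the pump to its compartments. It was at 481, 421, 349 and 404 CPM in yolk sac, against 265, 206, 193 and 210 CPM in E12.5 brain. The groups did not overlap, which held in this direction for 8.36% of all tested rows. On the log2 scale the change was 0.95 (SE 0.19, edgeR adjusted p = 0.000199), and it passed in all 15 alternatives, at 1.15 with batch as a covariate. It was at 207, 315 and 350 CPM (lowest, median and highest) in E18.5 brain and at 261, 253, 218 and 282 CPM in adult brain, and neither later step passed (log2 0.41 and −0.18, edgeR adjusted p = 0.0917 and 0.575).

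The a subunit has further isoforms, and their mix differed among the groups. UMIs count 3' ends of transcripts, so these counts need no division by length, though the capture of each gene can differ. Among the UMIs of Atp6v0a1, Atp6v0a2, the Atp6v0a4 row and Tcirg1, the a3 isoform of lysosomes and osteoclasts, Atp6v0a1 made up 79.5 ± 2.78% in yolk sac, 55.9 ± 4.01% in E12.5 brain, 58.9 ± 2.99% in E18.5 brain and 44.4 ± 5.87% in adult brain. Tcirg1 made up 17.9 ± 0.97%, 39.3 ± 6.56%, 33.4 ± 4.75% and 45.1 ± 6.20%. The yolk sac shares of Atp6v0a1, 76.6 to 82.8%, lay above those of all brain libraries. Tcirg1 itself is no member by name. It was at 221, 253, 322 and 241 CPM in adult brain, against 146, 161, 176 and 127 CPM in E12.5 brain, a rise of 0.79 (log2, SE 0.26, edgeR adjusted p = 0.0131) with no overlap between libraries.

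The other tested V0 rows, the proteolipid ring and its neighbours, passed in none of the 4 comparisons. Atp6v0b, the c″ subunit of the ring, was at 858, 704, 644 and 723 CPM in yolk sac and 605, 597, 724 and 827 CPM in E12.5 brain, and its largest change was 0.30 at E18.5 against E12.5 (log2, edgeR adjusted p = 0.141). Atp6v0c, the c subunit, averaged 138 ± 49.6, 95.2 ± 34.0, 110 ± 38.4 and 119 ± 64.9 CPM in yolk sac, E12.5, E18.5 and adult brain. Atp6v0d1, which couples V0 to the rotor, averaged 306 ± 15.8, 305 ± 21.6, 238 ± 34.6 and 241 ± 55.0 CPM in the same groups. Atp6v0e averaged 276 ± 36.3, 274 ± 42.6, 241 ± 29.3 and 196 ± 61.7 CPM, and Atp6v0a2 11.2 ± 13.0, 17.2 ± 11.7, 33.7 ± 13.0 and 49.6 ± 18.8 CPM. Of the 4 V-ATPase promoters with CACGTG, 3 belong to Atp6v0b, Atp6v0d1 and Atp6v0e, which passed in none of the 4 comparisons, and the fourth to Atp6v1a. Whether these letters bear on the levels was not tested.

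Both tested accessory genes rose at E18.5. Atp6ap1 encodes Ac45, a glycoprotein that helps to assemble and sort the pump. It was at 164 (lowest), 243 (median) and 275 CPM (highest) in E18.5 brain, against 119, 122, 103 and 114 CPM in E12.5 brain. All E18.5 libraries were above all E12.5 libraries, as for 8.11% of all tested rows in this direction, and the log2 fold change was 0.97 (SE 0.22, edgeR adjusted p = 0.00117), passing in all 17 alternatives. In adult brain it was at 171, 264, 229 and 148 CPM, also above every E12.5 library (15.3% of all tested rows), with a log2 change of 0.85 (SE 0.27; edgeR, adjusted p = 0.0102). That adult call was lost without adult replicate 2 (log2 0.71) and without the filter on low counts (log2 0.61, edgeR adjusted p = 0.131). Yolk sac, at 111, 79.8, 61.5 and 51.9 CPM, did not pass against E12.5 brain (log2 −0.55, edgeR adjusted p = 0.161).

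Atp6ap2 encodes the prorenin receptor, whose membrane stub belongs to the pump. It was at 77.4, 185 and 243 CPM (lowest, median and highest) in E18.5 brain, against 119, 129, 34.3 and 52.5 CPM in E12.5 brain. The ranges overlapped and the E12.5 brain plates, which also differ in batch and depth, stood apart. Its log2 fold change was 0.98 (SE 0.29, edgeR adjusted p = 0.00994). That rise did not pass with batch as a covariate or with counts summed per plate (edgeR adjusted p = 0.106 and 0.0928). In adult brain it was at 80.4, 87.9, 52.0 and 53.6 CPM, so that the adult libraries lay below 5 of the 6 E18.5 libraries, with a log2 change of −1.31 (SE 0.38; edgeR, adjusted p = 0.00936). With cells of at least 500 UMIs alone, the adult step was −0.97 and did not pass (edgeR adjusted p = 0.081; range over all alternatives 4.78e-04 to 0.081). The mean of E18.5 brain was thus above those of both its earlier and its later group.

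Among the Rabs of the route from endoplasmic reticulum to Golgi, Rab1b fell and its paralog Rab1 did not pass. Rab1b was at 88.3, 141 and 209 CPM (lowest, median and highest) in E18.5 brain, against 243, 270, 257 and 228 CPM in E12.5 brain. The groups did not overlap, and the log2 fold change was −0.80 (SE 0.21, edgeR adjusted p = 0.00379). The adult libraries, at 131, 132, 156 and 80.5 CPM, were also below every E12.5 library (log2 −0.95, SE 0.26, edgeR adjusted p = 0.00392). With batch as a covariate the values were −0.48 and −0.63 and did not pass. Rab1 averaged 201 ± 57.3, 217 ± 56.7, 246 ± 49.8 and 222 ± 67.7 CPM in yolk sac, E12.5, E18.5 and adult brain. Rab1b thus made up 47.5 ± 4.79%, 54.0 ± 6.67%, 36.9 ± 8.99% and 36.2 ± 5.94% of the UMIs of the pair. Rab1 and Rab1b are close in sequence, and how reads that match both were counted is not given in the sources used here. Rab2a, which acts on the same route, averaged 269 ± 20.2, 301 ± 24.7, 277 ± 61.2 and 311 ± 89.1 CPM and passed in none of the 4 comparisons.

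Rab8a, which carries cargo from the Golgi to the plasma membrane, fell as well. It was at 88.5, 117 and 213 CPM (lowest, median and highest) in E18.5 brain, against 202, 178, 253 and 258 CPM in E12.5 brain. The ranges overlapped through E18.5 replicate 1, which at 213 CPM stood far above the other 5. The fitted log2 fold change was −0.76 (SE 0.22, edgeR adjusted p = 0.00889), and it was lost without E12.5 replicate 3 or 4 (−0.65 to −0.64). The adult libraries were at 90.5, 110, 156 and 67.1 CPM, all below the E12.5 libraries. Their log2 fold change against E12.5 brain was −1.01 (SE 0.28, edgeR adjusted p = 0.00431) and passed in all 15 alternatives. Yolk sac, at 237, 243, 278 and 237 CPM, did not pass against E12.5 brain (log2 0.21).

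**Figure D4:**
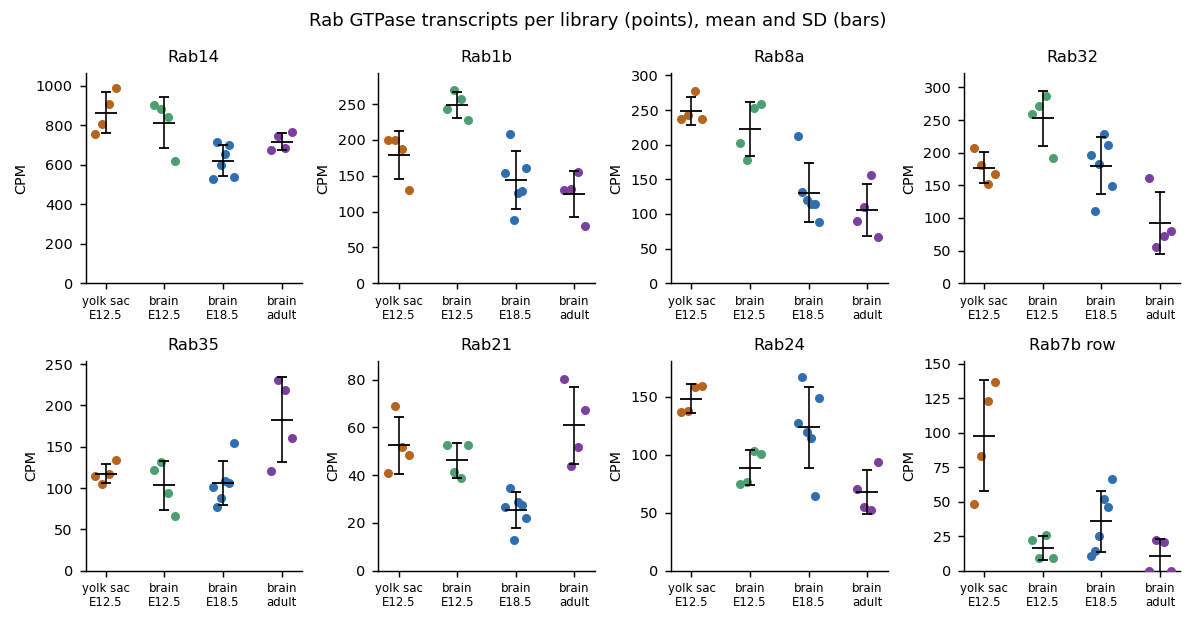
CPM of 8 Rab rows, 1 point per library, with the mean and SD of each group as bars. Rab1b and Rab8a are lower in later brain than in E12.5 brain, Rab32 is lowest and Rab35 highest in adult brain, and Rab24 and the Rab7b row are higher in yolk sac than in E12.5 brain.

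Among the Rabs of early endosomes, Rab14 fell at E18.5. Rab14, which moves cargo between Golgi and early endosomes, was at 526, 627 and 716 CPM (lowest, median and highest) in E18.5 brain, against 902, 882, 844 and 622 CPM in E12.5 brain. Replicate 4 of E12.5 brain lay inside the range of E18.5 brain. The log2 fold change was −0.40 (SE 0.14, edgeR adjusted p = 0.0335). It was lost in 13 of 17 alternatives, more than any other call. Among these were the fits without E12.5 replicate 1, 2 or 3, those without E18.5 replicate 1, 3, 4, 5 or 6 (−0.38 to −0.31), and RLE scaling (−0.35). Rab5c, of early endosomes, averaged 95.7 ± 12.2, 95.2 ± 27.1, 85.5 ± 32.3 and 102 ± 29.8 CPM in yolk sac, E12.5, E18.5 and adult brain, and passed in no comparison. Its paralogs Rab5a and Rab5b had 148 and 32 UMIs in all and did not pass the filter.

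Rab11a and Rab11b, of recycling endosomes, passed in none of the 4 comparisons. Rab11a averaged 129 ± 35.3, 193 ± 41.0, 163 ± 54.0 and 228 ± 23.2 CPM, and Rab11b 231 ± 13.8, 187 ± 63.6, 183 ± 23.5 and 166 ± 24.7 CPM, in yolk sac, E12.5, E18.5 and adult brain. Rab11a made up 35.3 ± 6.11%, 51.4 ± 7.71%, 46.3 ± 7.68% and 57.9 ± 4.68% of the UMIs of the pair. Its yolk sac shares of 27.2 to 40.4% lay below the adult shares of 52.5 to 63.9%, between groups that differ in tissue, age and gate. The Rab4b row, which joins Rab4b with a microRNA, averaged 144 ± 64.7, 185 ± 42.4, 161 ± 34.4 and 201 ± 28.6 CPM and passed in no comparison. Rab4a had 93 UMIs and Rab9, of the route from late endosomes to the Golgi, 86 UMIs, and neither passed the filter.

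Rab35 and Rab21 were the Rabs that rose in adult brain. Rab35, which acts in recycling at the plasma membrane, was at 121, 231, 218 and 161 CPM in adult brain, against 76.5, 103 and 155 CPM (lowest, median and highest) in E18.5 brain. Adult replicate 1 lay inside the range of E18.5 brain. On the log2 scale the change was 0.81 (SE 0.27, edgeR adjusted p = 0.0282) and was not called without adult replicate 2 or 3 or E18.5 replicate 1, 2 or 3 (0.65 to 0.76). Against E12.5 brain, at 121, 131, 94.3 and 65.7 CPM, the log2 fold change was 0.81 (SE 0.28, edgeR adjusted p = 0.0186), not called without adult replicate 2 or 3 or E12.5 replicate 4 (0.69 to 0.73).

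Rab21, an early endosome Rab that carries integrins, was at 80.4, 44.0, 52.0 and 67.1 CPM in adult brain, against 12.6, 27.1 and 34.8 CPM (lowest, median and highest) in E18.5 brain. The groups did not overlap (7.70% of all tested rows in this direction). Its log2 fold change was 1.28 (SE 0.44, edgeR adjusted p = 0.0328), and the call was lost without adult replicate 1 or 4 or E18.5 replicate 3 or 6 (1.08 to 1.22) and with cells of at least 500 UMIs alone (0.76). In an adult library 3 UMIs stand for 30.2 to 40.2 CPM, so these values rest on few counts. E12.5 brain was at 52.6, 41.2, 38.6 and 52.5 CPM, close to the adult level (log2 0.42, edgeR adjusted p = 0.445).

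Among the Rabs of late endosomes and lysosomes, the Rab7b row differed most between tissues. The row joins 5430435G22Rik, Rab42 and Rab7b; RefSeq pairs the first with Rab7b, which acts between late endosomes and the Golgi, and lists Rab42 as another gene, so it cannot be given to 1 gene. It was at 48.1, 83.5, 123 and 137 CPM in yolk sac, against 22.3, 9.36, 25.7 and 8.75 CPM in E12.5 brain, with no overlap. The fitted log2 fold change was 2.60 (SE 0.48, edgeR adjusted p = 6.40e-05), the largest of any tested member, and it kept its call without any single library. With batch as a covariate it was 1.89 and did not pass (edgeR adjusted p = 0.0654; range over all alternatives 3.17e-07 to 0.0654). The yolk sac plates differed, and replicates 1 and 2, which share a batch with brain replicates 3 and 4, were the lower pair. In E18.5 brain the row was at 10.6, 35.6 and 66.4 CPM (lowest, median and highest), and in adult brain it had 0, 22, 20.8 and 0 CPM from 4 UMIs. Rab7 itself had 25 UMIs in yolk sac, 18 in E12.5 brain, 29 in E18.5 brain and 13 in adult brain.

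Rab24, which is linked to autophagosomes, was at 137, 138, 159 and 159 CPM in yolk sac, against 74.9, 76.7, 103 and 101 CPM in E12.5 brain. The groups did not overlap, and the log2 fold change was 0.81 (SE 0.26, edgeR adjusted p = 0.0264). The call was lost without yolk sac replicate 3 or 4 or brain replicate 1 or 2 (0.71 to 0.79), and with batch as a covariate the value was 0.42. Within the shared batch, yolk sac replicates 1 and 2 (137 and 138 CPM) stood above brain replicates 3 and 4 (103 and 101 CPM). E18.5 brain was at 64.3, 124 and 167 CPM (lowest, median and highest) and adult brain at 70.4, 54.9, 52.0 and 93.9 CPM (log2 −0.84, edgeR adjusted p = 0.0661). Rab24 and Rab21 share the 10 letters in capitals above. In adult against E18.5 brain Rab21 was called higher, while Rab24 was lower by value and not called. A link of these letters to the levels was not tested.

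Rab32, which serves the making of lysosome-related organelles, fell in adult brain. It was at 161, 54.9, 72.7 and 80.5 CPM in adult brain, against 111, 190 and 229 CPM (lowest, median and highest) in E18.5 brain. Only adult replicate 1 lay inside the range of E18.5 brain. The log2 fold change was −0.92 (SE 0.29, edgeR adjusted p = 0.018). It was −0.82 to −0.76 and not called without adult replicate 2 or 3, and −0.64 without the cells with granulocyte transcripts (edgeR adjusted p = 0.249; range over all alternatives 0.00236 to 0.249). Against E12.5 brain, at 259, 271, 287 and 193 CPM, the adult libraries were all lower, with a log2 change of −1.41 (SE 0.29; edgeR, adjusted p = 0.000146) that kept its call without any single library but not with batch as a covariate (−1.08, edgeR adjusted p = 0.0867). Rab27a, a Rab of secretory lysosomes, averaged 42.9 ± 10.4, 58.2 ± 24.3, 55.9 ± 31.1 and 58.8 ± 8.93 CPM in yolk sac, E12.5, E18.5 and adult brain, with no call.

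The tested Rabs not described so far (Rab12, Rab18, Rab31, Rab40c and the row that joins Rab41 and Rab43) passed in none of the 4 comparisons. Rab31, of the route from Golgi to endosomes, differed most between libraries of a group, at 62.9, 39.9, 197 and 163 CPM in yolk sac and 101, 157, 38.6 and 61.3 CPM in E12.5 brain. The pairs share a plate and a sequencing batch. No library of yolk sac overlapped those of E12.5 brain for 4 Rabs, 3 higher and 1 lower, and for 1 V-ATPase row, where 19.9% of all tested rows showed such a gap (11.6% in the lower direction). The same counts were 2 and 3 (18.7%) at E18.5 against E12.5, 1 and 1 (16.8%) in adult against E18.5 brain, and 4 and 2 (34.3%) in adult against E12.5 brain.

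Without the filter on low counts, 6 further Rabs were called in adult against E12.5 brain. The share of all rows called in that fit is not given here, and with the filter 38.6% of all tested rows were called in this contrast. Rab5a, Rab6b, Rab39 and Rab44 were higher (log2 1.30, 2.91, 3.63 and 3.82) and Rab13 and Rab3d lower (−4.98 and −3.36). Rab5a, the early endosome Rab that drives fusion, had 37 UMIs in adult brain, 33 in E18.5 brain and 52 in E12.5 brain, and was also called against E18.5 brain (1.53). Rab6b, a Golgi Rab, had 21 UMIs in adult brain, 16 in E18.5 brain and 9 in E12.5 brain. Rab13 had 0 UMIs in adult brain, 10 in E18.5 brain, 24 in E12.5 brain and 41 in yolk sac. Such counts give the direction in these libraries and little more, and fitted fold changes against so few counts depend on the prior count.

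The other genes of these routes were set beside the members in 7 lists of regulators and partners. Of their 73 tested rows, edgeR called 8 higher and 10 lower in yolk sac against E12.5 brain (11.0% and 13.7%, against 7.04% and 8.81% of all tested rows). In E18.5 against E12.5 brain it called 8 and 3 (11.0% and 4.1%, against 11.1% and 13.4%), in adult against E18.5 brain 8 and 5 (11.0% and 6.8%, against 10.3% and 11.2%), and in adult against E12.5 brain 17 and 11 (23.3% and 15.1%, against 17.8% and 20.7%). These totals are near the shares of all tested rows or below them, other than the higher calls in adult against E12.5 brain and both directions in yolk sac, which are somewhat above. Of 14 tested exchange factors, which switch Rabs on, 1 rose and 2 fell in yolk sac against E12.5 brain, 4 rose and 0 fell at E18.5 against E12.5, 4 rose and 1 fell in adult against E18.5 brain, and 7 rose and 1 fell in adult against E12.5 brain. Those that rose made up 7.1%, 28.6%, 28.6% and 50% of the list, against 7.04%, 11.1%, 10.3% and 17.8% of all tested rows called higher. Their median log2 fold changes were −0.14, 0.13, 0.38 and 0.76, against −0.05, −0.03, −0.03 and −0.07 for all tested rows. The list was chosen with earlier results of these data known, so these shares describe it and test nothing. Hps4, part of the exchange factor of Rab32, was at 412, 341, 447 and 563 CPM in adult brain, against 225, 230, 253 and 258 CPM in E12.5 brain (log2 0.89, SE 0.21, edgeR adjusted p = 0.000879), and at 62.9, 68.9, 61.5 and 77.9 CPM in yolk sac (log2 −1.78 against E12.5 brain, edgeR adjusted p = 6.58e-08). Rab32 itself fell in adult brain, opposite to Hps4. Rab3il1, an exchange factor for Rab8, was at 804, 890, 1070.2 and 845 CPM in adult brain and 597, 601, 518 and 595 CPM in E12.5 brain (log2 0.67, edgeR adjusted p = 0.00274). Dennd4a, an exchange factor for Rab10, was at 161, 198, 145 and 161 CPM in adult brain and 30.3, 43.1, 42.8 and 39.4 CPM in E12.5 brain (log2 2.13, edgeR adjusted p = 8.22e-06).

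The remaining lists had few calls or calls both ways. Of 3 tested chaperone and prenylation rows, the Rabac1 row, a Rab acceptor of the Golgi, was at 603, 516, 634 and 604 CPM in adult brain, against 283, 260, 287 and 306 CPM in E12.5 brain (log2 1.08, SE 0.18, edgeR adjusted p = 7.73e-06). Of 13 activating proteins, 3 rose and 3 fell in adult against E12.5 brain, 23.1% each way against 17.8% and 20.7% of all tested rows. Of 19 effectors and tethers, 3 rose and 3 fell in that contrast (15.8% each way), and 4 rose and 1 fell in yolk sac against E12.5 brain (21.1% and 5.3%, against 7.04% and 8.81%). There Eea1, the tether that Rab5 recruits, was at 85.1, 98.0, 204 and 130 CPM in yolk sac, against 44.5, 65.5, 25.7 and 52.5 CPM in E12.5 brain (log2 1.46, SE 0.33, edgeR adjusted p = 0.00104). Mlph, an effector of Rab27a in pigment cells, was at 80.4, 121, 83.1 and 107 CPM in adult brain, and at 0 in all 14 embryonic libraries. That is at least 34.7-fold higher than in E18.5 brain and 48.6-fold higher than in E12.5 brain, taking 3 UMIs in the whole group as the floor. Of 5 tested rows in the list of pump assembly and regulation, Rogdi was at 251, 341, 322 and 469 CPM in adult brain, against 653, 586, 887 and 748 CPM in E12.5 brain (log2 −1.05, SE 0.21, edgeR adjusted p = 9.22e-05), and it also fell at E18.5 (−0.92) and in yolk sac (−1.50). Of 8 lysosomal channel and sensing rows, 1 rose in adult against E12.5 brain, Flcn, which acts in nutrient sensing (log2 1.53, edgeR adjusted p = 0.00834). Of 11 endolysosomal SNAREs, which fuse membranes, 1 rose and 3 fell in adult against E12.5 brain (9.1% and 27.3%). Stx16 rose (log2 1.35, edgeR adjusted p = 0.015). Of those that fell, Vamp8 was at 402, 407, 384 and 469 CPM in adult brain, against 641, 623, 788 and 639 CPM in E12.5 brain (log2 −0.68, SE 0.18, edgeR adjusted p = 0.00279). Over all tested rows 17.8% were called higher and 20.7% lower in this contrast.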

How the data were processed

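The file deposited by the authors holds UMI counts by gene row and well as whole numbers with no normalization, beside an annotation of the wells. Libraries were prepared by MARS-seq, which sorts single cells into plates and sequences 3' ends of polyadenylated RNA, per the labels' protocols. Build mm9 and bcl2fastq 2.15.0.4 are named per the submitters' processing notes; the sources used here do not give the aligner, the UMI collapsing or the annotation. Wells with 1 sorted cell and at least 300 UMIs were kept (3012 of 3420) and summed per library (18 libraries). No 2 libraries of a group agreed within sampling noise (chi-square per degree of freedom 1.49 to 2.32 for 2 libraries of a plate and 1.84 to 5.54 for libraries of different plates). Libraries are thus nested in plates, which the main test does not model; plate sums are an alternative. CPM are counts per library total. All libraries entered 1 edgeR 4.0.16 fit (limma 3.58.1, R 4.3.3; TMM, filterByExpr, robust quasi-likelihood F-test), adjusted by Benjamini-Hochberg over 4883 rows; calls are at an adjusted p under 0.05. The fit was tested on simulated data. Alternatives were RLE scaling, no filter, 500 UMIs per cell, DESeq2 1.42.0, batch as a covariate, plate sums and each library left out. Library values are given for up to 5 called rows per family and comparison whose higher group reached a mean of 50 CPM, and for fixed endosome Rabs and pump subunits. Members named to identify a small count, or as partners, were chosen after their values were seen. The members and all lists were chosen with earlier results of these data known. Of the member rows, 13 join several symbols and count reads of more than 1 name. The level of 1 further marker gene is not reported here.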

Additional observations from a re-analysis of the deposited data

Results flagged for a closer look

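In 37 rows and sums over 4 groups (148 sets of libraries), 5 libraries stood farther from the rest of their group than Dixon's 95% critical value allows (0.829 for 4 libraries, 0.625 for 6). Chance flags about 1 in 20 such sets, which is more than were found. The Rab4b row was at 241 CPM in yolk sac replicate 1, where the other 3 were at 107 to 116 CPM, and at 229 CPM in E18.5 brain replicate 4, where the other 5 were at 133 to 154 CPM. Rab5c was at 136 CPM in E12.5 brain replicate 4, where the other 3 were at 78.6 to 85.0 CPM. Rab8a was at 278 CPM in yolk sac replicate 3, where the other 3 were at 237 to 243 CPM, and at 213 CPM in E18.5 brain replicate 1, where the other 5 were at 88.5 to 132 CPM. Neither the Rab4b row nor Rab5c was called in any comparison.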

How the results depend on the processing

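No fold change of a tested member that was called in either setting turned its sign. Of 23 called changes, 4 kept their call in every alternative run (Atp6v0a1 in yolk sac, Atp6ap1 at E18.5, and Atp6v1f and Rab8a in adult against E12.5 brain), and 11 were lost in some leave-one-out fit. In yolk sac against E12.5 brain, the 2 Rabs became 0 with batch as a covariate, 1 with plate sums and 1 without cells holding granulocyte transcripts, and the 2 V-ATPase rows became 1 with plate sums. At E18.5 against E12.5, the 3 Rabs became 0 with batch as a covariate and 0 with plate sums, and the 4 V-ATPase rows became 1 and 1. In adult against E18.5 brain, the 3 Rabs became 1 with 500 UMIs per cell, and the 2 V-ATPase rows became 1 with 500 UMIs, 0 with plate sums and 1 without cells holding granulocyte transcripts. In adult against E12.5 brain, the 4 Rabs became 9 with no filter, which tests more rows, and 1 with batch as a covariate. Calls were also lost with no filter. In adult against E18.5 brain these were Rab35 and Rab21 (edgeR adjusted p = 0.206 and 0.209), so 1 of the 3 Rab calls was kept. In adult against E12.5 brain they were Rab35 and Atp6ap1 (edgeR adjusted p = 0.208 and 0.131). The other causes were not tested. Plate sums use fewer samples, and the Rab7b row (yolk sac, without granulocyte cells) and Rab21 (without E18.5 replicate 5) fell below the filter and gave no value there. Leaving out 1 library gave 1 to 2, 1 to 4, 2 to 4 and 4 to 6 Rabs in these 4 comparisons, and 1 to 2, 3 to 5, 1 to 3 and 3 to 4 V-ATPase rows. No paired analysis was possible because the labels give no replicate number that groups share. Depth limits most in adult brain, where 3 UMIs over the group are 8.30 CPM.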

Other observations

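Of 117 member changes that were not called, 14 were called in at least 1 alternative. Atp6v1d, a rotor subunit of the pump, was at 171, 33.0, 31.2 and 148 CPM in adult brain and at 206, 236, 94.3 and 131 CPM in E12.5 brain, with a log2 fold change of −0.82 (edgeR adjusted p = 0.0937) that was called in 4 alternatives at −1.36 to −0.98. Atp6v1c1, a V1 subunit that guides assembly, was at 261, 76.9, 249 and 308 CPM in adult brain and 144, 125, 154 and 171 CPM in E12.5 brain. Its adult replicate 2, the library with the most granulocyte transcripts, stood below all E12.5 libraries. Without that library the log2 fold change was 0.92 (edgeR adjusted p = 0.00633, and 0.0757 with all libraries). The same library had the highest adult value of Atp6ap1, Atp6ap2 and Rab35, and a link to the granulocyte transcripts was not tested further.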
